A study of Mus musculus with 6 samples.

Results

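Serpins and the plasminogen activators were followed in granulosa cells, the somatic cells that surround the oocyte in ovarian follicles, from mouse ovaries. The set held the 64 protein-coding genes, of 49315 genes in each count file, whose symbol has the serpin form or is Plat, Plau or Plaur: 61 serpins, the 2 activators and their receptor. RNA was sequenced from 3 wild-type libraries (WT) and from 3 libraries labelled as Jmjd3 knockout (KO), with the gene removed in granulosa cells. All 6 came from cells isolated fresh from C57BL/6J females of 8 to 9 weeks. No treatment is listed for either group. The sources used here do not give the Cre driver, the deleted exons, the phase of the oestrous cycle or whether each library was 1 animal or a pool, so p-values measure the spread between libraries, which may be technical.

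Plasminogen activators cut plasminogen into plasmin, a protease that degrades fibrin and matrix and has long been studied in the follicle wall at ovulation. Plat encodes the tissue-type activator, Plau the urokinase-type activator, and Plaur the receptor that holds urokinase at the cell surface. Serpins are a family of mostly inhibitory proteins that trap a protease by presenting an exposed loop as bait. Some members carry hormones or help proteins fold.

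Library totals lay between 42379018 and 49901493 counts. KO replicate 3 stood apart from the others: on the first principal component, with 33.2% of the variance, it was at 46.8 and the other 5 lay between -14.4 and -2.14. Kdm6b (GRCm38, chromosome 11, 69398508 to 69413675), the gene of the histone demethylase JMJD3, stood at 66.2 to 72.8 CPM (counts relative to library size, with TMM scaling) in the WT libraries and at 64.7 to 112 CPM in those labelled KO, so its counts do not check the labels. The granulosa cell markers were present, with Foxl2 at 106 to 129 CPM and Fshr at 113 to 146 CPM over the 6 libraries. Of the 12 markers listed, 8 had a positive and 4 a negative fold change in KO. At an adjusted p under 0.05, edgeR, DESeq2 and limma-voom each called 2 of the 12 lower in KO and 0 higher.

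Of the 64 genes, 28 passed the filter on low counts. The antichymotrypsin-like gene Serpina3g was the one gene of the 28 that passed the test (3.57%, against 0.219% of all 18250 genes tested). It rose in KO at an adjusted p under 0.05 in edgeR, as did 0.126% of all genes. None of the 28 fell, where 0.0932% of all genes did, and DESeq2 and limma-voom called 0 lower as well. At an unadjusted p under 0.05 in edgeR, 4 of the 28 were higher and 2 lower, together 21.4% against 9.16% of all genes tested. Neighbours of Serpina3g on chromosome 12, Serpina3c and the protein C inhibitor gene Serpina5, also stood above every WT library in every KO library but did not pass. The groups did not overlap for 5 of the 28 (17.9%), close to the 15.6% of all genes tested. KO lay above WT for 3 (10.7%, against 7.68% of all genes) and below WT for 2 (7.14%, against 7.89%). The median log2 fold change was 0.048 for the 28 and 0.0039 for all genes tested. The major activators, Plau and Plat, and the most abundant inhibitor, Serpine2, did not pass the test.

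**Figure D1:**
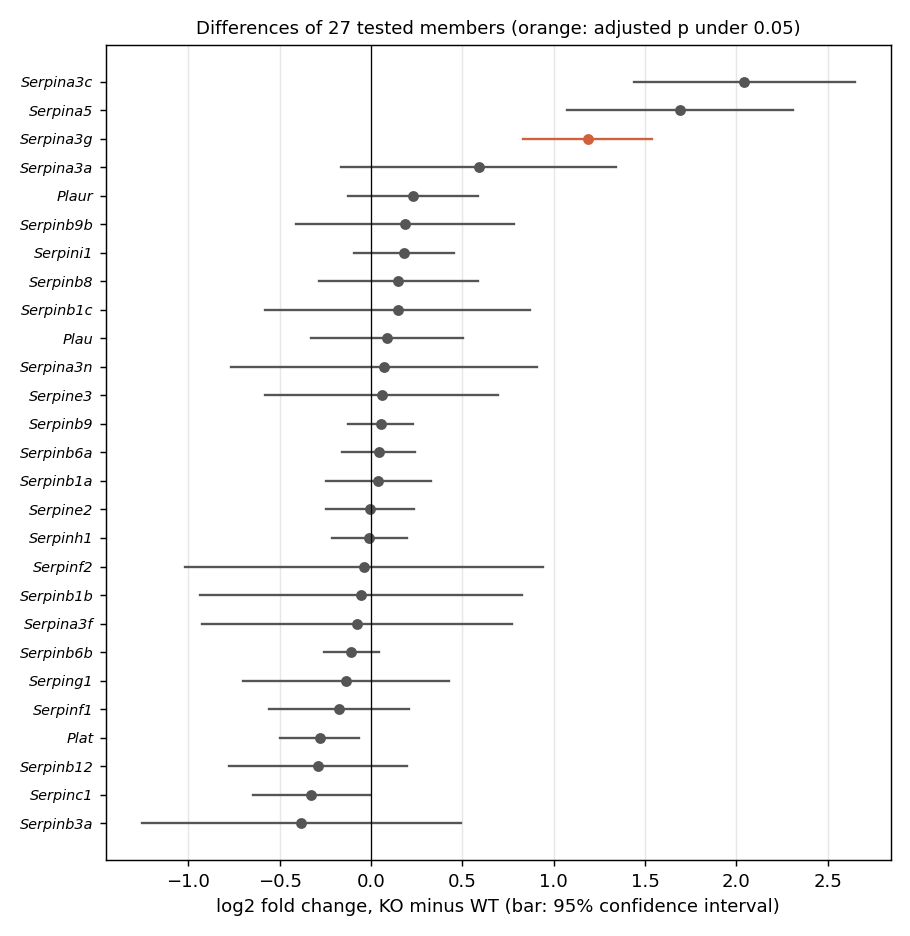
Log2 fold change (x axis, KO minus WT) of 27 of the 28 tested genes, with points for the edgeR estimate and bars for its 95% confidence interval. Serpina3c, Serpina5 and Serpina3g lie furthest to the right at 2.04, 1.69 and 1.19, and Serpina3g, in orange, is the one past the threshold.

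Levels between genes were compared per kilobase of gene length. This length counts all annotated exon bases, 8287 for Serpine2 and 2443 for Serpinh1, and can exceed that of the transcript expressed. The order depends on it, since without it Serpine2 stood above Serpinh1 (means of 2216 and 1376 CPM over the 6 libraries). Serpinh1, which encodes the collagen chaperone HSP47, was the highest, with 537 to 602 CPM per kb over the 6 libraries. In the WT libraries it ranked 57th of 18250 genes. Serpine2, which encodes protease nexin-1, an inhibitor of thrombin and of both plasminogen activators, came next at 247 to 288 CPM per kb and ranked 141st. Plau followed at 101 to 159 CPM per kb, and then the intracellular inhibitor gene Serpinb6a at 58.3 to 70.9 CPM per kb. The WT ranges of these 4 did not overlap their neighbours in the order. Serpinb1a and Serpinb6b, next in the order, overlapped each other in WT, with medians over all libraries of 40.7 and 40.3 CPM per kb. Serping1, Serpina5, Serpinf1 and Plat followed in the order. The WT ranges of neighbours among these 4 overlapped, while that of Plat did not overlap that of the next gene, Serpinb9. Serpine2 and Serpinh1 together held 72.6% to 77.0% of all counts of the 64 genes, which made up 0.458% to 0.51% of each library.

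**Figure D2:**
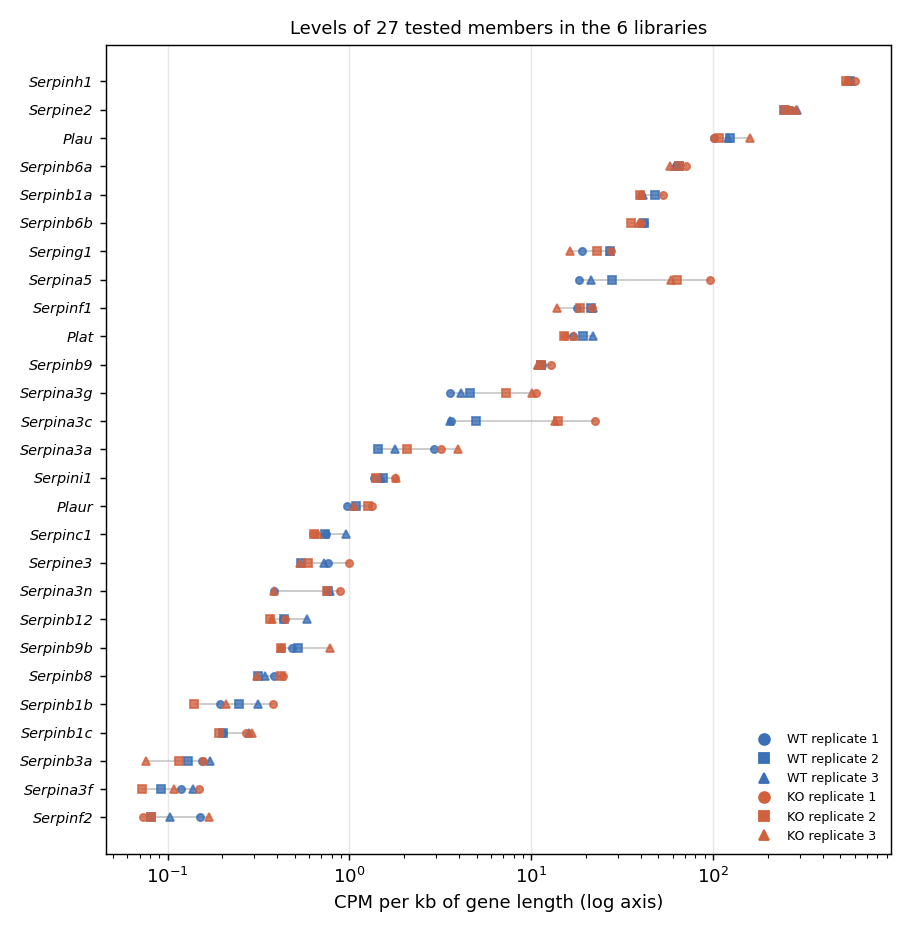
Level in CPM per kb of gene length (log x axis) of 27 of the 28 tested genes, one point per library, with WT in blue, KO in orange and the replicate number shown by the symbol. The levels run from 602 CPM per kb for Serpinh1 in KO replicate 1 to 0.0720 CPM per kb for Serpina3f in KO replicate 2. Serpina5, Serpina3c and Serpina3g show all KO points to the right of all WT points.

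Plau (chromosome 14, 20836662 to 20843388, plus strand) RNA measured 237, 291 and 283 CPM across WT replicates 1 to 3, against 237, 252 and 372 CPM in KO replicates 1 to 3. Only KO replicate 3 lay above the WT range. The log2 fold change was 0.088 ± 0.18 (SE; 95% confidence interval -0.33 to 0.51; adjusted p = 0.909, edgeR), and without KO replicate 3 it was -0.14 (adjusted p = 0.519, edgeR; 0.519 to 1 over the alternatives). The 14 ovulation response genes, among them Areg and Ptgs2, summed to 3104 to 3375 CPM in WT and 2991 to 3414 CPM in KO. In KO replicate 3 the 13 that passed the filter had a median of 2.23 on the log2(CPM + 1) scale above the WT mean. In the other 5 libraries it was -0.08 to 0.06, and none of the 14 was at 0 in every library. Their part in the Plau value was not tested.

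Plat (chromosome 8, 22757727 to 22782844, plus strand) RNA measured 106, 120 and 137 CPM in the WT libraries against 96.2, 94.9 and 107 CPM in the KO libraries. KO replicate 3 lay just above the lowest WT library, and the other KO libraries lay below all 3. The log2 fold change was -0.28 ± 0.097 (SE; 95% confidence interval -0.50 to -0.063) and did not pass over all genes (adjusted p = 0.432, edgeR). Mouse oocytes are known to store Plat messenger RNA. The 12 oocyte markers, none at 0, summed to 836 to 1075 CPM in WT and 706 to 779 CPM in KO, and 11 of the 12 were lower in KO by the fitted fold (median -0.34 on the log2 scale); edgeR called 0 of them, 9 had an unadjusted p under 0.05 and DESeq2 and limma-voom each called 1, Kit, which was higher. Whether oocyte RNA contributes to the Plat value was not tested, and in bulk RNA fewer cells of a type cannot be told apart from less RNA per cell.

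Plaur (chromosome 7, 24462484 to 24475968, plus strand) was scarce, with 2.53, 2.85 and 2.76 CPM in the WT libraries against 3.48, 3.30 and 2.78 CPM in the KO libraries. One KO library fell inside the WT range and the log2 fold change was 0.23 ± 0.16 (SE, adjusted p = 0.687, edgeR).

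Among the inhibitors of the activators, Serpine2 (chromosome 1, 79794197 to 79861180, minus strand) was the most abundant. It measured 2228, 2044 and 2389 CPM in the WT libraries against 2204, 2055 and 2374 CPM in the KO libraries, so the KO libraries fell within the WT range. The log2 fold change was -0.0061 ± 0.11 (SE, adjusted p = 0.99, edgeR), and the 95% confidence interval of the fold, 0.843 to 1.18, bounds the difference. Serpini1, the neuroserpin gene, whose product inhibits the tissue-type activator, averaged 10.7 ± 0.64 CPM (SD, n = 3) in the WT libraries and 12.1 ± 1.63 CPM in the KO libraries, with overlap and a log2 fold change of 0.18 ± 0.12 (SE; adjusted p = 0.682, edgeR). Serpinf2, the gene of the plasmin inhibitor alpha-2-antiplasmin, was near the detection limit at 0.171 to 0.395 CPM over all libraries. Serpinb2, which encodes PAI-2, had no more than 3 counts in any library and was not tested.

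**Figure D3:**
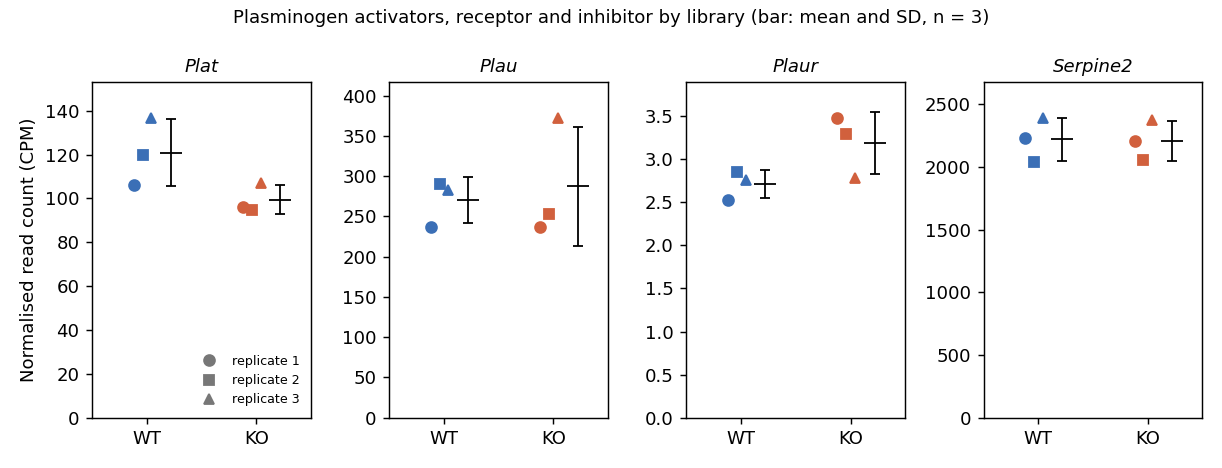
Normalised read counts (CPM, y axis from 0) of Plat, Plau, Plaur and Serpine2 in each library, with the replicate number shown by the symbol and bars for the mean ± SD of 3 libraries. The KO and WT points overlap in all 4 panels, and KO replicate 3 is the highest Plau point at 372 CPM.

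The 3 largest fold changes among the 28 were in the Serpina cluster of chromosome 12, where 23 of the 64 genes lie between 103614786 and 104414329 (GRCm38). Serpina5 (104101113 to 104106137, plus strand) encodes protein C inhibitor, which inhibits activated protein C and urokinase. Its RNA measured 39.7, 59.9 and 46.2 CPM in the WT libraries against 208, 136 and 127 CPM in the KO libraries. Every KO library lay above every WT library, with KO replicate 1 the highest. The fold was 3.23 (95% confidence interval 2.11 to 4.97) and the log2 fold change 1.69 ± 0.25 (SE), which did not pass over all genes (adjusted p = 0.135, edgeR). Leaving out each library in turn gave log2 fold changes of 1.43 to 1.86, with adjusted p of 0.111 to 0.522 in edgeR. DESeq2 placed it past the threshold (adjusted p = 5.87e-14). Over the alternatives that test for any difference, adjusted p ranged from 5.87e-14 (DESeq2) to 0.522 (edgeR). Against a minimum absolute log2 fold change of 1 it did not pass in edgeR.

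Serpina3c (104146382 to 104153870, minus strand) encodes a kallikrein-binding serpin. Its RNA measured 7.96, 11.0 and 7.91 CPM in the WT libraries against 49.7, 31.2 and 29.7 CPM in the KO libraries. The groups were far apart, with the lowest KO library above the highest WT library, and the fold was 4.12 (95% confidence interval 2.71 to 6.27). The log2 fold change was 2.04 ± 0.25 (SE, adjusted p = 0.0577, edgeR). It passed without KO replicate 1 (1.76, adjusted p = 0.00416, edgeR), in DESeq2 (adjusted p = 9.76e-19) and in limma-voom (adjusted p = 0.0334). Over the alternatives that test for any difference, its adjusted p ranged from 9.76e-19 (DESeq2) to 0.291 (edgeR). Against a minimum absolute log2 fold change of 1 it was 0.837 in edgeR.

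Serpina3g (104236245 to 104241939, plus strand) encodes the serpin Spi2A, known in mouse immune cells as an inhibitor of lysosomal cathepsins. Its RNA measured 7.49, 9.70 and 8.69 CPM in the WT libraries against 22.3, 15.4 and 21.2 CPM in the KO libraries, again without overlap. It rose 2.27-fold (95% confidence interval 1.78 to 2.91; log2 fold change 1.19 ± 0.16 SE, adjusted p = 0.026, edgeR). The call ended without WT replicate 1 (adjusted p = 0.142), WT replicate 2 (0.142), WT replicate 3 (0.256) or KO replicate 1 (0.068) in edgeR, while the log2 fold change stayed between 1.08 and 1.33 in the 6 fits that left out 1 library. It also ended when genes with a mean under 1 CPM were left out (adjusted p = 0.0624, edgeR). Over the alternatives that test for any difference, its adjusted p ranged from 2.2e-09 (DESeq2) to 0.256 (edgeR). Against a minimum absolute log2 fold change of 1 it did not pass in edgeR.

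**Figure D4:**
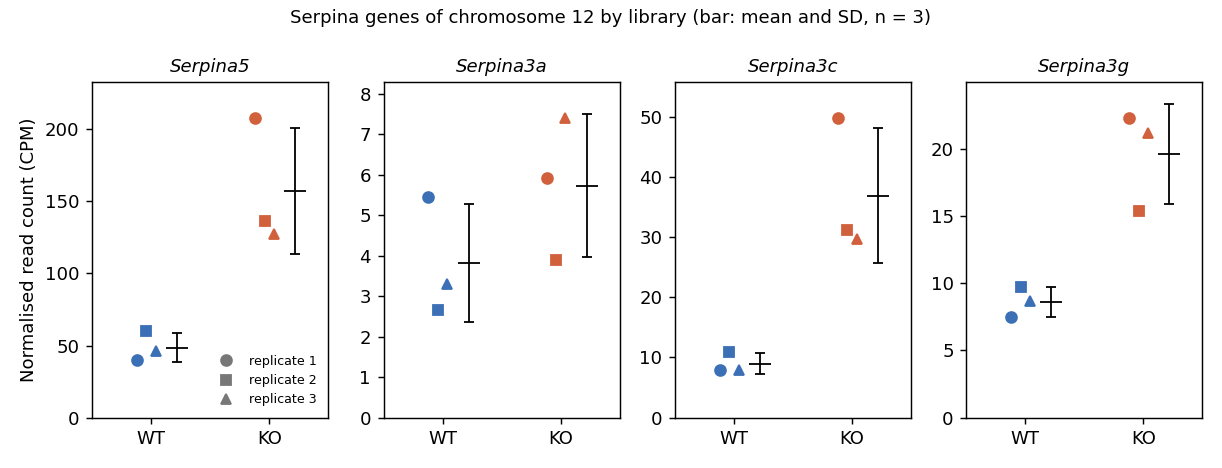
Normalised read counts (CPM, y axis from 0) of Serpina5, Serpina3a, Serpina3c and Serpina3g in each library, with the replicate number shown by the symbol and bars for the mean ± SD of 3 libraries. In Serpina5, Serpina3c and Serpina3g each KO point lies above each WT point, and in Serpina3a the groups overlap.

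The 3 genes with separate groups did not form an unbroken run. Serpina3a, between Serpina5 and Serpina3c, measured 5.45, 2.67 and 3.31 CPM in the WT libraries against 5.91, 3.89 and 7.39 CPM in the KO libraries. Its groups overlapped and the log2 fold change was 0.59 ± 0.32 (SE, adjusted p = 0.626, edgeR). Serpina3f, between Serpina3c and Serpina3g, stood at 0.210 to 0.317 CPM in WT and 0.165 to 0.341 CPM in KO. Serpina3n, the antichymotrypsin-like gene at the far end, stood at 0.798 to 1.61 CPM in WT and 0.789 to 1.83 CPM in KO (0.070 ± 0.36 SE on the log2 scale, adjusted p = 0.967, edgeR). The flanking genes outside the family, Ppp4r4 (0.14, adjusted p = 0.861) and Gsc (-0.84, adjusted p = 0.586), were not past the threshold in edgeR. The other 37 of the 45 genes in the window were below the filter.

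**Figure D5:**
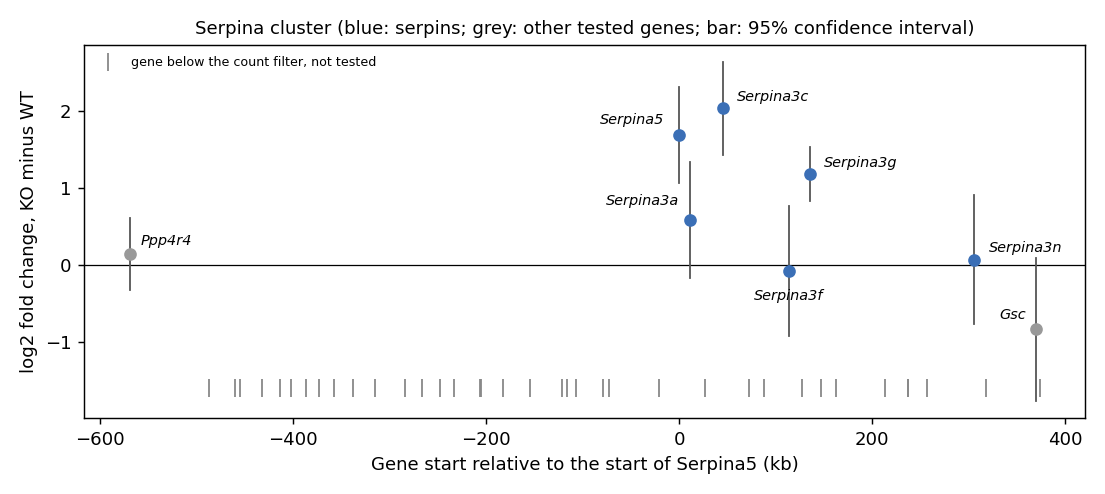
Log2 fold change (y axis, KO minus WT) of the 8 tested genes of the Serpina window of chromosome 12 against the distance of their start from that of Serpina5 in kb, with bars for the 95% confidence interval and grey ticks for genes below the filter. Serpina5, Serpina3c and Serpina3g, within 141 kb, stand at 1.19 to 2.04, while Serpina3f lies among them at -0.075.

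The Serpina3 genes are close copies, which could exchange reads. Serpina3g resembled Serpina3f most, with 1561 of 1727 aligned transcript bases identical (90.4%), and then Serpina3i (89.2%). In the GENCODE M21 transcripts no stretch of 150 bases, the read length, was shared exactly between Serpina3g, Serpina3c, Serpina3a, Serpina3f, Serpina3n or Serpina5 and any other gene. The longest exact run was 135 bases for Serpina3g (with Serpina3i) and 81 bases for Serpina3c (with Serpina3m), and Serpina5 shared no run of 30 bases or more. The 135-base run shared with Serpina3i is not shown. Shown instead is the most alike ungapped coding window of Serpina3g and Serpina3f, the copy with the most identical bases. It differs at 7 of 150 bases, which are in capitals (GENCODE M21, GRCm38, plus strand, chr12:104239134-104239283 and chr12:104218305-104218454).
Serpina3g: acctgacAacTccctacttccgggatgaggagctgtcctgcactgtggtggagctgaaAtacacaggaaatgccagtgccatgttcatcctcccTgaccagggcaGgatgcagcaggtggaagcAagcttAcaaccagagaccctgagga
Serpina3f: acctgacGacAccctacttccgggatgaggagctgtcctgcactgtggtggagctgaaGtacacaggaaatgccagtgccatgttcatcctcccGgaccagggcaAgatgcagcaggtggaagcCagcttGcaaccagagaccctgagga
Serpina3f, Serpina3i and Serpina3m, the copies most like Serpina3g and Serpina3c, had at most 0.341 CPM, 5 counts and 2 counts in any library. The sources used here do not say how reads that match several places were counted. As an alternative, the 10 Serpina3 genes were summed to 1 row, which does not depend on how counted reads are split among them. Reads left out or counted more than once would still change it. The sum was 22.2, 25.3 and 22.1 CPM in WT and 80.3, 52.3 and 59.7 CPM in KO. The KO sums lay above all WT sums (log2 fold change 1.47 ± 0.16 SE, adjusted p = 0.0187 over 18243 rows, edgeR).

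The stretches before the start sites of these genes are shown because KO lay above WT for all 3 (RefSeq, GRCm38.p6; positions count back from -1, the base before the start). Serpina3c and Serpina3g share a block in which 108 of 137 aligned bases are identical, in capitals. It lies at -234 to -91 of Serpina3c (minus strand, chr12:104153963-104154106) and at -152 to -4 of Serpina3g (plus strand, chr12:104235995-104236143). The count files start Serpina3g further downstream than RefSeq does, at 104236245. From that start its block and matches would lie further back, so the places of the block in the 2 genes depend on the start used. The 150 bases before Serpina5 (plus strand, chr12:104100963-104101112) carry no capitals, since the best match of its 250 bases to either gene covered only 16 aligned bases.
Serpina5: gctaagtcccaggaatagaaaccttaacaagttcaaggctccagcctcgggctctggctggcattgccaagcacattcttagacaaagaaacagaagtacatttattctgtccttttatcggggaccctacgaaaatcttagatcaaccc
Serpina3c: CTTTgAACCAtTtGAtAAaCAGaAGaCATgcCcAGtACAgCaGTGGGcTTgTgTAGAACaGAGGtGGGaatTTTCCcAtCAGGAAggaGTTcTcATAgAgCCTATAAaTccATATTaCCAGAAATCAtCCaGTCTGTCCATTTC
Serpina3g: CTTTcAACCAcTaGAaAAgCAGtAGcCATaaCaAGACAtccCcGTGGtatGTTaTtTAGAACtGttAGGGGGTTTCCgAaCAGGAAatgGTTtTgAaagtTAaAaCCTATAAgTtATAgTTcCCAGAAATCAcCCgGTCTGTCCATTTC
Both strands of the 250 bases before each start were searched for TTCNNNGAA (the form bound by STAT factors), CAAGGTCA and CAAGGCCA (NR5A receptors), TGACGTCA (the cyclic AMP response element) and TATAAA. Serpina3g held TTCNNNGAA once, at -33 to -25 from the RefSeq start, as did 7.02% of the 32851 promoters in the table at least once. Serpina3c held TATAAA once, at -132 to -127, and 12.4% of all promoters held it. None of the 5 forms was in the Serpina5 stretch, and CAAGGTCA, CAAGGCCA and TGACGTCA, in 1.33%, 1.99% and 1.55% of promoters, were in none of the 3. The matches do not overlap one another.

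Sums of the markers of some other cell types did not overlap between the groups either. The 7 theca and interstitial cell markers summed to 235 to 307 CPM in WT and 350 to 493 CPM in KO, with 2 markers above and 2 below WT without overlap and 0 called by edgeR, DESeq2 or limma-voom (3 at an unadjusted p under 0.05 in edgeR). Much of this sum was Cyp17a1, at 69.6 to 135 CPM in WT and 174 to 316 CPM in KO. The median of the 7 relative to the WT mean was -0.032, 0.012 and -0.043 on the log2(CPM + 1) scale in KO replicates 1 to 3. The 7 red blood cell markers summed to 383 to 798 CPM in WT and 830 to 2260 CPM in KO, with all 7 above WT and 1 called by edgeR. The 6 mast cell markers summed to 38.5 to 43.8 CPM and 47.9 to 71.0 CPM, nearly all of it Kit, which oocytes and theca also express. Kit was the 1 above WT in every KO library. The 5 mast cell markers tested all had a positive fold change (median 1.16 on the log2 scale). Of these, edgeR called 0 (2 higher at an unadjusted p under 0.05), DESeq2 called 2 higher and limma-voom 1. The 10 luteal cell markers, all with a positive fold change, summed to 9609 to 11961 CPM in WT and to 20845, 14904 and 11431 CPM in KO replicates 1 to 3. Of the 10, edgeR called 0 (6 higher at an unadjusted p under 0.05), DESeq2 called 3 higher and limma-voom 2. The sum of KO replicate 3 lay inside the WT range, but 4 of the 10, Star, Akr1c18, Prlr and Ptgfr, lay above every WT library in every KO library. For comparison, 7.68% of all genes tested lay above WT without overlap and 7.89% below. An unadjusted p under 0.05 in edgeR was found for 9.16%. No marker of these lists was at 0 in every library. Endothelium (186 to 221 CPM in WT, 160 to 318 CPM in KO) and immune cell sums (216 to 277 and 180 to 337 CPM) overlapped. The part of these cells in the Serpina values was not tested.

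The serpins that do not inhibit proteases did not pass the test. Serpinh1 (chromosome 7, 99345376 to 99353239, minus strand) measured 1352, 1388 and 1400 CPM in the WT libraries against 1472, 1312 and 1331 CPM in the KO libraries. The groups overlapped, and the log2 fold change was -0.0085 ± 0.092 (SE), with a 95% confidence interval of the fold from 0.862 to 1.15. Serpinf1, the gene of the antiangiogenic factor PEDF, measured 41.9, 50.2 and 51.8 CPM in the WT libraries against 51.2, 43.5 and 32.9 CPM in the KO libraries (-0.17 ± 0.16 SE, adjusted p = 0.774, edgeR). Its lowest value was in KO replicate 3. The same library was lowest for Serping1, the complement C1 inhibitor gene, which measured 44.4, 63.4 and 63.1 CPM in the WT libraries against 64.0, 53.3 and 38.1 CPM in the KO libraries (-0.14 ± 0.23 SE, adjusted p = 0.887, edgeR). The 8 stromal fibroblast markers, none at 0, summed to 667 CPM in KO replicate 3 and to 999 to 1291 CPM in the other 5 libraries. Their part in the Serpinf1 and Serping1 values was not tested. Serpina6, Serpina7 and Serpinb5, which like Serpinh1 and Serpinf1 and unlike Serping1 do not inhibit proteases, were below the filter.

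Antithrombin RNA (Serpinc1) measured 6.32, 6.30 and 8.17 CPM in the WT libraries against 5.42, 5.44 and 5.73 CPM in the KO libraries. The KO libraries all lay below the WT libraries, but the log2 fold change of -0.33 ± 0.14 (SE) did not pass (adjusted p = 0.538, edgeR). Its value is uncertain, since 34.4% of its exon bases are shared with Zbtb37 on the opposite strand and the sources used here do not give the strand setting of the counts. Serpind1 and Serpina10, also genes of coagulation inhibitors, had at most 7 and 4 counts in a library.

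Of the 10 tested Serpinb genes, which act mostly inside cells, edgeR called 0, with 0 at an unadjusted p under 0.05, and DESeq2 and limma-voom also called 0. Serpinb6a stood at 340 ± 9.85 CPM (SD, n = 3) in WT and 350 ± 34.2 CPM in KO (log2 fold change 0.042 ± 0.089 SE), with exon bases shared on the opposite strand with Nqo2 (14.1%), 1110046J04Rik (10.8%) and Ripk1 (4.46%), so its value is uncertain. Serpinb1a, an inhibitor of neutrophil elastase, stood at 83.8 ± 8.24 and 86.1 ± 14.8 CPM (0.040 ± 0.12 SE). Serpinb6b measured 91.3, 91.2 and 89.2 CPM in the WT libraries against 88.0, 77.7 and 86.5 CPM in the KO libraries. Its groups did not overlap, with KO lower, but the log2 fold change of -0.11 ± 0.067 (SE) did not pass (adjusted p = 0.659, edgeR). Serpinb9, which inhibits granzyme B, stood at 39.3 ± 1.10 and 40.8 ± 3.58 CPM (0.054 ± 0.080 SE). Serpinb8, Serpinb9b and Serpinb12 stood at 0.918 to 2.53 CPM over all libraries, with log2 fold changes of 0.15, 0.19 and -0.29 and adjusted p of 0.709 to 0.860 in edgeR. The tested genes Serpine3, Serpinb1b, Serpinb1c and Serpinb3a lay at 0.125 to 1.39 CPM and did not pass.

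Of the 36 genes below the filter, 10 had no count in any library, which at 3 counts a library allows up to 0.0584 to 0.0706 CPM, counting error only. They were Serpina1c, Serpina1f, Serpina7, Serpina11, Serpinb3b, Serpinb3c, Serpinb3d, Serpinb9e, Serpinb9f and Serpinb9g. Serpina1c, Serpinb9f, Serpinb9g, Serpina11 and Serpinb9e share 59.7%, 38.6%, 30.9%, 29.9% and 2.03% of their 150-base windows with other genes. The rest of the 10 share none. For those with shared windows the limit may be too low, since the treatment of multiple matches is not given. The other 26 reached at most 17 counts in a library (0.363 CPM, Serpina6 in KO replicate 1, the corticosteroid-binding globulin gene). Serpina1e, a copy of the alpha-1-antitrypsin gene, had 15, 14 and 10 counts in WT and 3, 3 and 2 counts in KO, without overlap. It shares 7.36% of its 150-base windows with another gene, and it was not called when the filter was left out. Serpinb6c had 6 counts in each WT library and 1, 3 and 1 counts in KO. Both were singled out after their values were seen.

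The partners of the plasmin system did not pass the test. Of the 30 listed genes 25 were tested, with a median log2 fold change of -0.0051. Of the 25, edgeR called 0, with 3 at an unadjusted p under 0.05, as had 9.16% of all genes tested. DESeq2 called 1 and limma-voom 0, against 221 and 85 over all genes. Plasminogen itself (Plg) had at most 0.471 CPM in a library and was below the filter. The gene that DESeq2 called was F2r (adjusted p = 0.0462), which encodes the thrombin receptor PAR1: it measured 36.5, 38.1 and 37.1 CPM in the WT libraries against 46.5, 45.6 and 62.8 CPM in the KO libraries. The KO libraries lay above all WT libraries (log2 fold change 0.47 ± 0.12 SE, adjusted p = 0.272, edgeR). The protease inhibitor gene A2m (0.66 ± 0.23 SE), the matriptase gene St14 (-0.39 ± 0.16 SE) and the collagen receptor gene Mrc2 (-0.24 ± 0.12 SE) followed by size of p, with adjusted p of 0.432, 0.51 and 0.597 in edgeR. The tissue factor gene F3, singled out after its values were seen, stood at 290 CPM in KO replicate 3 and at 30.7 to 52.7 CPM in the other 5 libraries. It is the library where Plau was highest too.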

How the data were processed

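Per the submitters' processing notes, the tools were STAR 2.5.2b, Trimmomatic 0.36 and featureCounts (Subread 1.5.2), on GRCm38. The deposited values are raw counts per gene, with the gene length in bases in the same files. The sources used here do not give the annotation release, strand setting or treatment of multiple matches.

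Gene IDs were matched to GENCODE M21 (49056 of 49315 matched; all 64 members found). In edgeR 4.0.16 (R 4.3.3), genes were kept by filterByExpr (18250), scaled by TMM and tested for genotype by the robust quasi-likelihood method, without covariates. P-values were adjusted by Benjamini-Hochberg over the 18250 genes, with a threshold of 0.05. Intervals are at 95% confidence, and 1 CPM equals 42.5 to 51.4 counts. Alternatives used other scalings and filters, DESeq2 1.42.0, limma-voom (limma 3.58.1), a replicate block, each library left out, and copies summed. The steps were tested on simulated data. Sequences come from RefSeq promoters (53 members matched) and GENCODE transcripts. No protein sequences were used here.

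Members, lists and the rule for named genes (13 listed members, any called, and any averaging 1 CPM or more) were chosen with earlier results of these data known. One tested member is not reported here by name; it stays in the counts.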

Additional observations from a re-analysis of the deposited data

How the results depend on the processing

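Called genes numbered 40 over all genes and 1 among the serpins and activators. DESeq2 gave 221 and 3, limma-voom 85 and 2, no filter 199 and 1, a mean of at least 1 CPM 21 and 0, and testing against a fold change of at least 1 on the log2 scale 6 and 0. Leaving out 1 library gave 8 to 421 and 0 to 1: 17, 8 and 9 genes without WT replicates 1, 2 and 3, 26 without KO replicate 1 and 421 without KO replicate 3. The labels do not say whether the replicate numbers pair the samples. Same-numbered libraries had deviations correlated at -0.0165, 0.0740 and -0.0326. The value of 0.0740, for replicate 2, was the highest between any WT and KO library, but not every library correlated best with its own number. With 3 libraries a group, such weak correlations cannot decide whether the samples were paired. With the replicate block 15 genes and 0 members were called. Of 344 values of named members under the alternatives, 308 kept sign and side of the threshold, 7 passed where the main value did not, 7 lost the call and 22 changed sign, none of them of a called gene. Of the 7 that passed, 3 are the single summed Serpina3 row, counted for Serpina3a, Serpina3c and Serpina3n; Serpina3a and Serpina3n passed under no other alternative. limma-voom turned Plau (-0.042), Serpinb1a (-0.029) and Serpinb9b (-0.068), and summing copies gave the Serpinb6 row 0.012 against -0.11 for Serpinb6b. Without 1 library the log2 fold change ranged from -0.14 to 0.20 for Plau, -0.19 to 0.36 for Serpina3n, -0.12 to 0.11 for Serpinb1a, -0.036 to 0.11 for Serpinb6a, -0.028 to 0.098 for Serpinb9, -0.18 to 0.33 for Serpinb9b, -0.074 to 0.049 for Serpine2, -0.53 to 0.24 for Serpinf2, -0.33 to 0.042 for Serping1 and -0.069 to 0.022 for Serpinh1. Serpinf2 gave no value with the 1 CPM filter. The cause of these changes was not tested. Depth limits the members under about 0.4 CPM, where each library gave few counts.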
